A study of Mus musculus with 6 samples.

Results

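The genes described here encode feedback inhibitors of mitogen-activated protein kinase (MAPK) signalling: the dual-specificity phosphatases Dusp1, Dusp4, Dusp5, Dusp6 and Dusp10, the Sprouty proteins Spry1, Spry2 and Spry4, and the Sprouty-related proteins Spred1 and Spred2. They were chosen by name, as the probes of the array whose gene name in the scanner files is 1 of these 10 symbols. This gave 15 of 41174 probes, for 9 of the 10 genes, since no probe carried the name Dusp5, and 8 genes had a probe that passed the filter on dim signal and were tested among 16702 genes. The samples were primary cultures from C4HD, a progestin-dependent mouse mammary tumour of female BALB/c mice that is passaged by transplantation into animals given medroxyprogesterone acetate. The cultures came from the epithelium-enriched fraction of the digested tumour, from which fibroblasts were removed by repeated sedimentation. They were transfected for 48 h with 30 nM of pre-miR-16, a precursor of the microRNA miR-16, or of pre-miR-Control, a scrambled precursor that yields no known mammalian microRNA. Each group held 3 samples that the labels call biological replicates, with 1 single-colour Agilent array per sample. No source says whether these came from separate tumours, so that p-values measure the spread between these samples only.

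MAPK cascades pass growth factor and stress signals to the nucleus through the kinases ERK, JNK and p38. Many of the genes that ERK switches on encode its own inhibitors, which closes a negative feedback loop. The dual-specificity phosphatases remove the activating phosphates from the kinases themselves, while Sprouty and Spred proteins act further upstream, at RAS and RAF. In mammary epithelium, where the receptor ErbB-2 feeds into this pathway, levels of such inhibitors are commonly read as a trace of pathway activity.

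A microRNA recognises its targets mainly through its seed, bases 2 to 8, and the mature product of the transfected precursor is shown to give that seed. The sequences are those of RefSeq (build GRCm38.p6), 5′ to 3′, with the seed in capitals, and mature miR-15a and miR-195a are shown as relatives with the same seed.
miR-16-5p: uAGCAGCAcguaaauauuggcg
miR-15a-5p: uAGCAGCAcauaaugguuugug
miR-195a-5p: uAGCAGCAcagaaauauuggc
In all, 10 mature mouse microRNAs of the RefSeq table share the seed AGCAGCA. The level of mature miR-16 was not measured by these arrays, and transcript sequences of the feedback inhibitors were not used here, so matches to the seed were not searched in them.

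Levels are given as the log2 of the processed signal minus the log2 of the array's 75th percentile. A level of 0 is thus the 75th percentile of that array, and levels of different probes cannot be set against each other. Changes are log2 fold changes, pre-miR-16 over pre-miR-Control, ± SE, from limma fitted to all genes with Benjamini-Hochberg adjusted p, and a gene was called at an adjusted p under 0.05. The 75th percentile lay between 625 and 909 signal units on the 6 arrays, 57.2% to 64.0% of spots were well above background, and none of the spots was saturated. Over all genes the median change was -0.20, with 2658 genes higher and 5544 lower (32.4% of calls were rises). Scaled on the spike-in probes, which stood 3.84 to 3.98 log2 units above the 75th percentile on control arrays and 3.31 to 3.67 above it on pre-miR-16 arrays, every change moved up by 0.38 and the split was 3653 higher and 1028 lower (78.0% rises).

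Of the 8 tested feedback inhibitors, the phosphatase genes Dusp10 and Dusp4 fell in the pre-miR-16 cultures, by 5.71-fold and 2.44-fold. The Sprouty-related genes Spred1 and Spred2 rose slightly, by 1.46-fold and 1.30-fold. The phosphatase genes Dusp1 and Dusp6 and the Sprouty genes Spry1 and Spry2 were not called in either direction. With 2 of 8 higher and 2 of 8 lower, against 15.9% of all genes higher and 33.2% lower, the shares are near those of the whole array. The groups did not overlap for these same 4 genes, 2 above and 2 below, where 18.9% and 42.5% of all genes did so. In either direction 49.1% of all genes were called. The median change of the 8 genes was 0.12. Scaled on the spike-ins, 3 of the 8 rose and 2 fell, against 21.9% and 6.15% of all genes. The falls of Dusp10 and Dusp4 stayed called under each of the 23 alternatives with a test, while the call for Spred1 ended under 7 of them and that for Spred2 under 11. Dusp4 was tested there at its brighter probe or at the mean of both, and its second probe alone was not called.

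**Figure D1:**
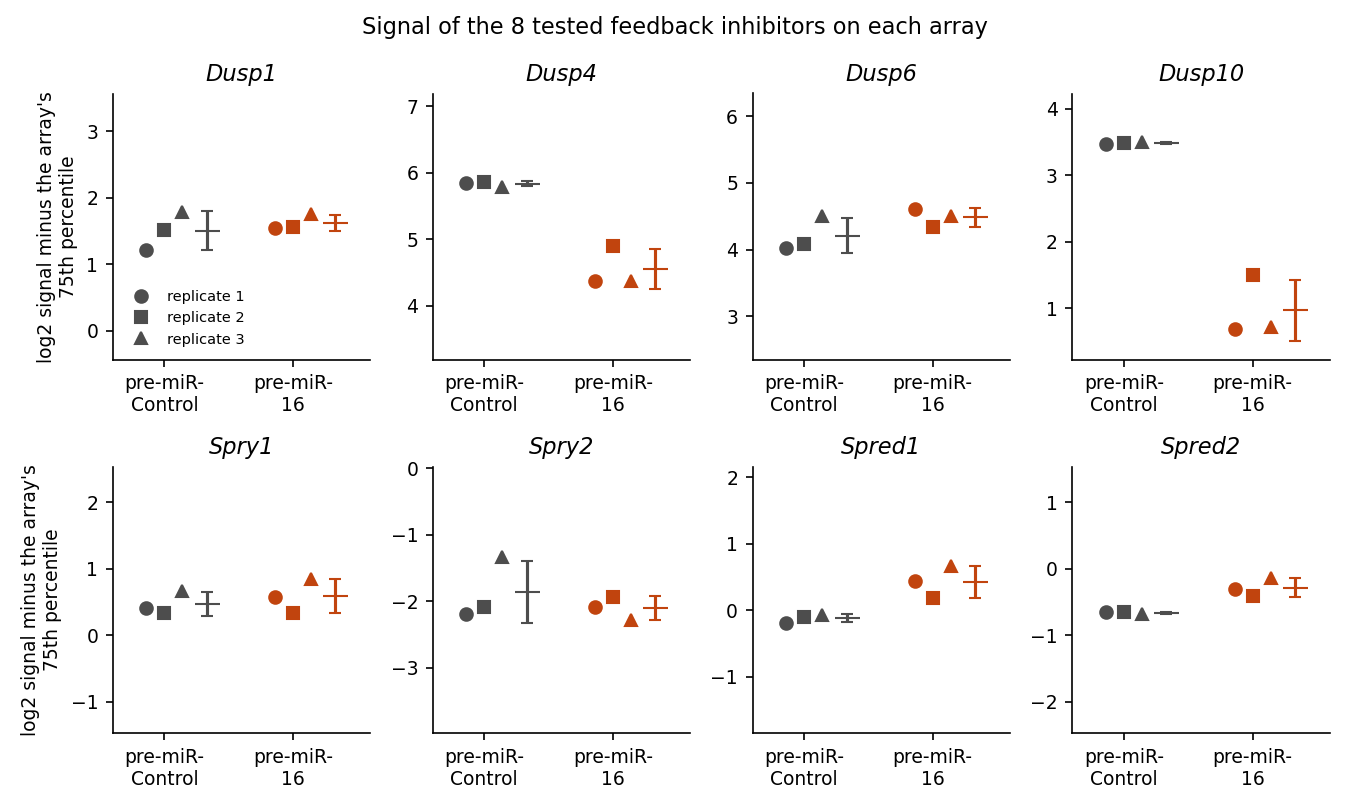
Level of each tested feedback inhibitor on each of the 6 arrays, at the probe tested for the gene (log2 signal minus the array's 75th percentile); every panel spans 4 log2 units, points are arrays and the bar beside them is the mean ± SD of 3. Dusp10 and Dusp4 lie apart between the groups with pre-miR-16 replicate 2 nearest to the controls, Spred1 and Spred2 are slightly higher in pre-miR-16, and the other genes overlap.

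Dusp10 encodes MKP-5, a phosphatase that acts on JNK and p38 rather than on ERK. Its level was 3.47, 3.48 and 3.50 on pre-miR-Control replicates 1, 2 and 3, and 0.69, 1.50 and 0.72 on pre-miR-16 replicates 1, 2 and 3. The controls were nearly identical and all 3 pre-miR-16 arrays lay far below them, with replicate 2 the least reduced. The mean went from 3.48 ± 0.02 to 0.97 ± 0.46 (SD, n = 3), a change of -2.51 ± 0.23 (95% interval -3.06 to -1.96; limma adjusted p = 4.25e-04). Only 0.263% of the genes tested had a lower change. The probe was well above background on every array, so that this is a measured fold and not a bound, and it was nearly as large with normexp background correction (-2.47), scaled on the spike-ins (-2.13) and in the authors' deposited series matrix (-2.42). The 6 arrays came from 3 slides, of which 2 held both groups. Slide 1 held replicate 1 of each group, and on slide 2 the second pre-miR-16 array shared the glass with controls 2 and 3, so that each within-slide value rests on 1 pre-miR-16 array, in slide 2 the least reduced. The change of Dusp10 was -2.78 within slide 1 and -1.99 within slide 2, and -2.33 with slide as a block (limma adjusted p = 0.00541). Pre-miR-16 replicate 3 was alone on slide 3, so the fit with slide as a block takes the group difference from slides 1 and 2 only.

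The single Dusp10 probe lies at chr1:183600757-183600816 on the forward strand of build mm7, per the scanner files, which give no exon or coding annotation. As the gene with the lowest change among the feedback inhibitors, its promoter is shown: the 250 bases before the RefSeq start site, at chr1:184034131-184034380 on the forward strand of GRCm38.p6, all in lower case because none of the searched motifs was found.
Dusp10: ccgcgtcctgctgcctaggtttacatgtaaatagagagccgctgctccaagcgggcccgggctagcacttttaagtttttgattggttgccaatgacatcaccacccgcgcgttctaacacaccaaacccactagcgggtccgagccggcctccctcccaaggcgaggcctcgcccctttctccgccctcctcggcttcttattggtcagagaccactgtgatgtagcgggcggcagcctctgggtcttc
The motifs were TGACTCA (the AP-1 site), TGACGTCA (the cyclic AMP response element) and CCGGAA (the core of ETS factor sites), each on both strands, and no motif contains another. They occur in 4.46%, 1.55% and 12% of the 32851 RefSeq promoter windows of the same length. RefSeq windows were matched for 8 of the 10 genes, with Dusp4 and Spry4 unmatched.

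Dusp4 encodes MKP-2, a nuclear phosphatase induced by ERK that acts on ERK and JNK. At the probe tested, its level was 5.85, 5.86 and 5.79 on the control replicates and 4.38, 4.90 and 4.37 on the pre-miR-16 replicates. As with Dusp10, the controls were tight, the groups did not overlap and pre-miR-16 replicate 2 was the least reduced. The change was -1.29 ± 0.16 (95% interval -1.67 to -0.90; limma adjusted p = 0.00150), with -1.47 within slide 1, -0.93 within slide 2 and -1.16 with slide as a block. Scaled on the spike-ins it was -0.90 (limma adjusted p = 0.00797). This probe, at chr8:33583106-33583165 in mm7, was designed to the cDNA AK012530, and the scanner files name it Dusp4.

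The second Dusp4 probe, designed to the RefSeq transcript NM_176933 and lying 2761 bases upstream at chr8:33580345-33580404, gave a smaller difference. Its level was 2.27, 2.17 and 2.09 on the controls and 1.46, 2.14 and 1.02 on the pre-miR-16 arrays. Here replicate 2 lay inside the range of the controls and only replicates 1 and 3 lay below it. In a fit of all kept probes this probe changed by -0.64 ± 0.27 (95% interval -1.30 to 0.03; limma adjusted p = 0.102) and was not called. It changed by -0.81 within slide 1, by 0.01 within slide 2 and by -0.25 scaled on the spike-ins. With the mean of both probes Dusp4 changed by -0.96 and stayed called (limma adjusted p = 0.0121).

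**Figure D2:**
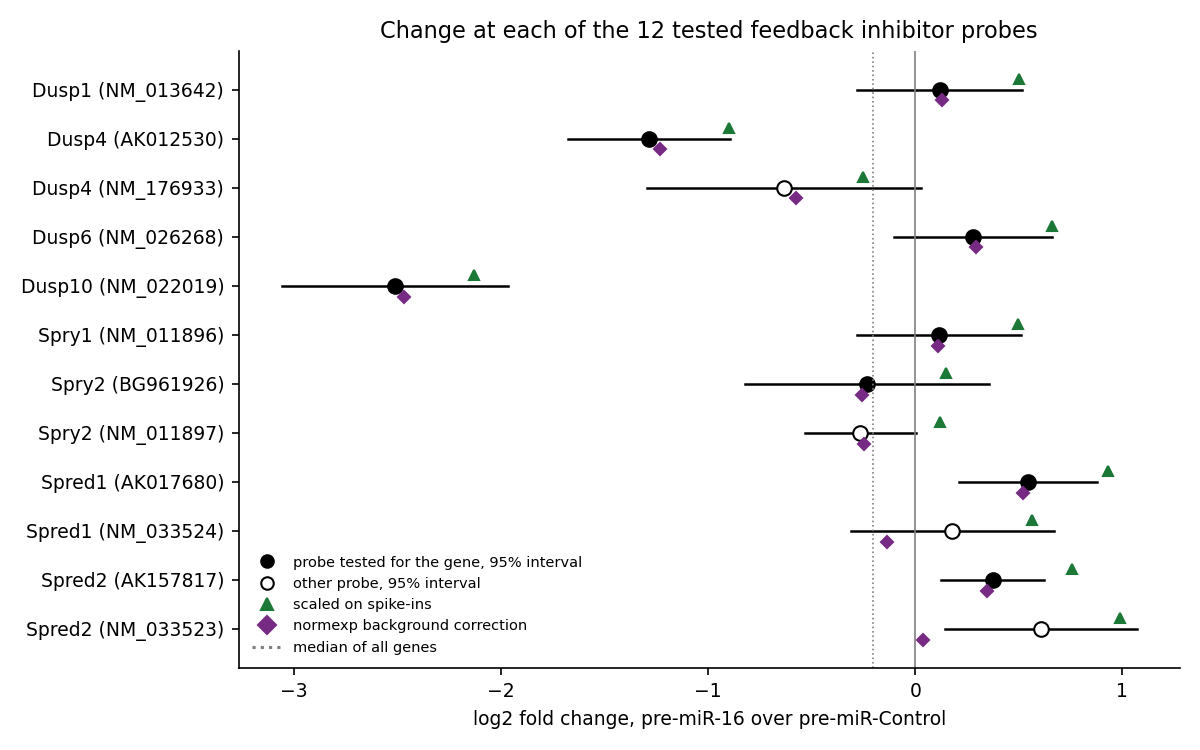
Log2 fold change (pre-miR-16 over pre-miR-Control) at each of the 12 probes that passed the filter, with its 95% interval from limma fitted to all kept probes, and the value under spike-in scaling (triangles) and normexp background correction (diamonds). Dusp10 and the tested Dusp4 probe lie left of 0 in every setting shown, the second Dusp4 probe has an interval that reaches 0.03, and at the dimmer Spred1 and Spred2 probes the normexp values are -0.14 and 0.04.

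Dusp6 encodes MKP-3, a cytoplasmic phosphatase with a strong preference for ERK and a commonly used readout of ERK activity. Its level was 4.03, 4.09 and 4.50 on the controls and 4.61, 4.34 and 4.50 on the pre-miR-16 arrays, so that the groups overlapped. The change was 0.28 ± 0.16 (95% interval -0.10 to 0.66; limma adjusted p = 0.187), which leaves room for a rise of up to 0.66 but not for a fall of the size seen for Dusp4 or Dusp10. Scaled on the spike-ins Dusp6 changed by 0.66 and was called (limma adjusted p = 0.0479), and so it was with normexp followed by quantile normalization (0.39, limma adjusted p = 0.0370). Its probe lies at chr10:98828759-98828818 (mm7).

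Dusp1 encodes MKP-1, an immediate early phosphatase that restrains p38, JNK and ERK after stress and mitogens. It read 1.21, 1.52 and 1.79 on the controls and 1.55, 1.57 and 1.76 on the pre-miR-16 arrays, all 3 of which lay within the range of the controls. The change of 0.12 ± 0.16 was not called (95% interval -0.28 to 0.52; limma adjusted p = 0.577), and it was 0.50 when scaled on the spike-ins (limma adjusted p = 0.150). Its sign turned without pre-miR-Control replicate 1 (-0.03) and within slide 2 (-0.09). The probe lies at chr17:24690398-24690455 (mm7). Among the 8 matched promoters Dusp1 was the only one with a match to any motif searched, and it is shown for comparison with that of Dusp10 (GRCm38.p6, chr17:26508473-26508722, reverse strand), with the cyclic AMP response element in capitals, whose first base lies at position -143 from the start site.
Dusp1: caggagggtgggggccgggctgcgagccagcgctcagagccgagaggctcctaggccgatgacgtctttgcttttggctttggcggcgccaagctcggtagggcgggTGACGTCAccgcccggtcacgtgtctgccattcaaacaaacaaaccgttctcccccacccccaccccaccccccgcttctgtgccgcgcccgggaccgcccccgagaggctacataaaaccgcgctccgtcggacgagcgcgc
The match is a description of the sequence. No peak, methylation or factor binding was measured in these samples.

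The Sprouty proteins are induced by growth factors and block the path from receptors to RAS and RAF. Spry1 read 0.40, 0.34 and 0.67 on the controls and 0.58, 0.34 and 0.85 on the pre-miR-16 arrays. The groups overlapped, and the change was 0.11 ± 0.16 (95% interval -0.28 to 0.51; limma adjusted p = 0.586), or 0.50 scaled on the spike-ins. The Spry1 probe lies at chr3:37455053-37455112 (mm7).

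Spry2 had a pair of probes that gave like changes. The brighter one, designed to the cDNA BG961926 (chr14:100321854-100321913, mm7), read -2.19, -2.08 and -1.33 on the controls and -2.08, -1.93 and -2.29 on the pre-miR-16 arrays. Control replicate 3 stood above the other arrays here, which overlapped. The change was -0.23 ± 0.24 (95% interval -0.83 to 0.36; limma adjusted p = 0.454). The probe to the RefSeq transcript NM_011897 (chr14:100322370-100322429) read -2.19, -2.43 and -2.44 on the controls and -2.63, -2.53 and -2.70 on the pre-miR-16 arrays, with no overlap between the groups. It changed by -0.27 ± 0.11 and was not called in the fit of all kept probes (limma adjusted p = 0.0941). Scaled on the spike-ins, the signs turned, to 0.15 and 0.12.

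Spry4 was not well above background at either of its probes on any array. Its processed signals lay between 3.61 and 7.56 units, against a 75th percentile of 625 or more, so neither a level nor a difference could be given. Dusp5, a nuclear phosphatase specific for ERK, had no probe under that name and was not analysed here.

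Spred1 and Spred2 hold RAS signalling down by binding RAF and by bringing the RAS-inactivating protein neurofibromin to the membrane. Spred1 read -0.18, -0.10 and -0.07 on the controls and 0.44, 0.19 and 0.66 on the pre-miR-16 arrays at the probe tested, designed to the cDNA AK017680 (chr2:116922962-116923021, mm7). All 3 pre-miR-16 arrays lay above all controls. The change was 0.55 ± 0.14 (95% interval 0.21 to 0.88; limma adjusted p = 0.0182). It was 0.62 within slide 1 and 0.27 within slide 2, and with slide as a block it was 0.42 and no longer called (limma adjusted p = 0.0739). That block also removes pre-miR-16 replicate 3 from the comparison, since this array was alone on its slide.

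The other Spred1 probes gave no called difference. The probe to NM_033524 at chr2:116912833-116912892 read -4.52, -5.13 and -5.20 on the controls and -4.94, -4.62 and -4.76 on the pre-miR-16 arrays. These overlapped, and the change of 0.18 ± 0.20 was not called (95% interval -0.31 to 0.67; limma adjusted p = 0.497). The third probe (chr2:116918168-116918227) was not well above background on any array. With the mean of the kept probes Spred1 changed by 0.36 and stayed called (limma adjusted p = 0.0428).

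Spred2 read -0.65, -0.66 and -0.67 on the controls and -0.31, -0.41 and -0.13 on the pre-miR-16 arrays at the probe tested, designed to the cDNA AK157817 (chr11:19975721-19975780, mm7). The controls were nearly identical and every pre-miR-16 array lay above them. The change was 0.37 ± 0.10 (95% interval 0.13 to 0.62; limma adjusted p = 0.0238), with 0.34 and 0.25 within slides 1 and 2 and 0.29 with slide as a block, where it was no longer called (limma adjusted p = 0.101). The probe to the RefSeq transcript NM_033523 (chr11:19974356-19974415) also read higher without overlap, at -4.46, -4.78 and -5.12 on the controls and -4.07, -4.40 and -4.08 on the pre-miR-16 arrays. It changed by 0.61 ± 0.19 (limma adjusted p = 0.0415 among all kept probes), but was well above background on only 2 of 3 control arrays and changed by 0.04 under normexp. Leaving out either pre-miR-Control replicate 1 or 2 or pre-miR-16 replicate 1 ended the calls of both Spred genes, at 0.51 to 0.55 for Spred1 and 0.38 to 0.39 for Spred2. Without pre-miR-Control replicate 3 (0.37) or pre-miR-16 replicate 3 (0.30) that of Spred2 ended.

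The promoters of the Spred genes are shown as those of the pair of feedback inhibitors that rose. They are the 250 bases before the RefSeq start sites in GRCm38.p6, forward strand, at chr2:117120821-117121070 for Spred1 and chr11:19924192-19924441 for Spred2. None of the 3 motifs was found in them.
Spred1: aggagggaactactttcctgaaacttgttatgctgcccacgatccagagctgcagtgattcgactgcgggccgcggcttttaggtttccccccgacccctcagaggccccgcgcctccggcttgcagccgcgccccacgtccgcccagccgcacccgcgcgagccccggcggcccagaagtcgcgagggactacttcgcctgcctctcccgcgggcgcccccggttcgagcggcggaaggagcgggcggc
Spred2: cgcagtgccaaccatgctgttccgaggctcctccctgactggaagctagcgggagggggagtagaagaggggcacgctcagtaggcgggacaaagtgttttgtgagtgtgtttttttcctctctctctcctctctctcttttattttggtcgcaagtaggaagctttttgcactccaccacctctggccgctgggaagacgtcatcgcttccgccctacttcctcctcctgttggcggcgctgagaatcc
The Spred1 window has a GC content of 70.8% and the Spred2 window of 56.0%, beside 59.6% for Dusp10 and a median of 52.4% over all windows.

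The remaining genes of the MAPK phosphatase family are given here to place Dusp10 and Dusp4, and were picked out after their values were seen. Dusp8, which like Dusp10 acts on JNK and p38, fell by 1.07 on the log2 scale (SE 0.16, limma adjusted p = 0.00302), while Dusp16, the third phosphatase of that kind, changed by -0.24 ± 0.10 and was not called (limma adjusted p = 0.0848). Dusp9, a cytoplasmic ERK phosphatase, fell (-0.61 ± 0.13, limma adjusted p = 0.0113), whereas Dusp7, of the same kind, changed by 0.70 ± 0.33 and was not called (limma adjusted p = 0.126). Dusp2, a nuclear phosphatase of lymphoid and myeloid cells, rose by 1.30 ± 0.33 (limma adjusted p = 0.0197). Members of the family thus went both ways, and with spike-in scaling neither Dusp8 (-0.68) nor Dusp9 (-0.22) was called.

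In the wider list of other MAPK phosphatases and inhibitors of RAS, RAF and ERK, 6 of 27 tested genes rose and 8 fell, with a median of -0.07. Of all genes 15.9% rose and 33.2% fell, with a median of -0.20. Scaled on the spike-ins 8 of the list rose and 0 fell, against 21.9% and 6.15% of all genes. The list also held Rasgef1a, which activates RAS rather than inhibits it and was not called (-0.81 ± 0.31). The genes with the smallest p all rose: Rasa3, a GTPase-activating protein for RAS (3.91 ± 0.14), Lrig1, which promotes degradation of ErbB receptors (2.88 ± 0.12), Dok1, a docking protein that recruits RAS-GAP (1.27 ± 0.10), and Ptpn7, a haematopoietic phosphatase of ERK and p38 (3.30 ± 0.36, or 1.14 under normexp, and well above background on 1 of 3 control arrays). Dusp14 and Dusp3, the 2 uncalled genes with the smallest changes, changed by 0.00 ± 0.12 and -0.01 ± 0.09.

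In the RAS-ERK cascade 3 of 24 genes rose and 7 fell, beside 15.9% and 33.2% of all genes. Their median of -0.20 equals that of all genes to 2 decimals, and scaled on the spike-ins 3 rose and 1 fell. Under that scaling 21.9% of all genes rose and 6.15% fell. Without pre-miR-Control replicate 2 or 3 there were 4 falls. Rps6ka2, which encodes an RSK kinase downstream of ERK, was well above background on 0 of 3 control arrays and was at least 4.57-fold higher (0.65 on the log2 scale under normexp). Map2k1, the ERK kinase MEK1, rose by 0.70 ± 0.10, while the RAS relative Rras2 and the RSK gene Rps6ka3 changed by -0.84 ± 0.09 and -0.83 ± 0.11, both called. Frs2 and Nras changed by -0.02 ± 0.09 and 0.05 ± 0.09 and were not called.

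Among genes of the p38 and JNK cascade, whose kinases Dusp10 acts on, 1 of 23 rose and 12 fell, with a median of -0.27. Of all genes 15.9% rose and 33.2% fell, with a median of -0.20. With spike-in scaling 2 of the list rose and 3 fell, against 21.9% and 6.15% of all genes. Map2k6, an activating kinase of p38, changed by -2.14 ± 0.32, and Map3k1, an upstream kinase of JNK, by -0.95 ± 0.14. The JNK1 gene Mapk8 went from a mean of 0.54 to -0.46 (SE of the difference 0.13), and all 3 were called as lower. Gadd45g, a stress-induced activator of the cascade, rose by 1.02 ± 0.09. Gadd45a and Gadd45b changed by -0.01 ± 0.11 and -0.05 ± 0.11 and were not called.

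Transcripts that ERK is known to induce also went both ways, as did the feedback inhibitors and the genes of the whole array. Of 28 tested, 9 rose and 4 fell (median 0.15), beside 15.9% and 33.2% of all genes. With spike-in scaling 12 rose and 0 fell, beside 21.9% and 6.15% of all genes. Egr2, an immediate early transcription factor, rose by 2.71 ± 0.10, and Hbegf, an ErbB ligand, by 1.33 ± 0.17. The ETS factors Etv5 and Etv1 had no control array with a signal well above background. They were at least 2.68-fold and at least 1.71-fold higher, with log2 changes of 0.40 and 0.36 under normexp. Such genes, counted among the 9 rises, passed the filter through the pre-miR-16 group alone, where they are high. With only probes well above background on all 6 arrays, 6 of 25 rose and 4 fell. Of all genes under that filter 2004 of 15054 rose and 5214 fell. Etv4 and Myc changed by 0.00 ± 0.31 and 0.12 ± 0.36 and were not called. Leaving out pre-miR-16 replicate 2 gave 14 rises and 6 falls in this list, while leaving out pre-miR-Control replicate 1 or 3 or pre-miR-16 replicate 3 gave 1 fall, and pre-miR-Control replicate 2 or pre-miR-16 replicate 1 gave 2.

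**Figure D3:**
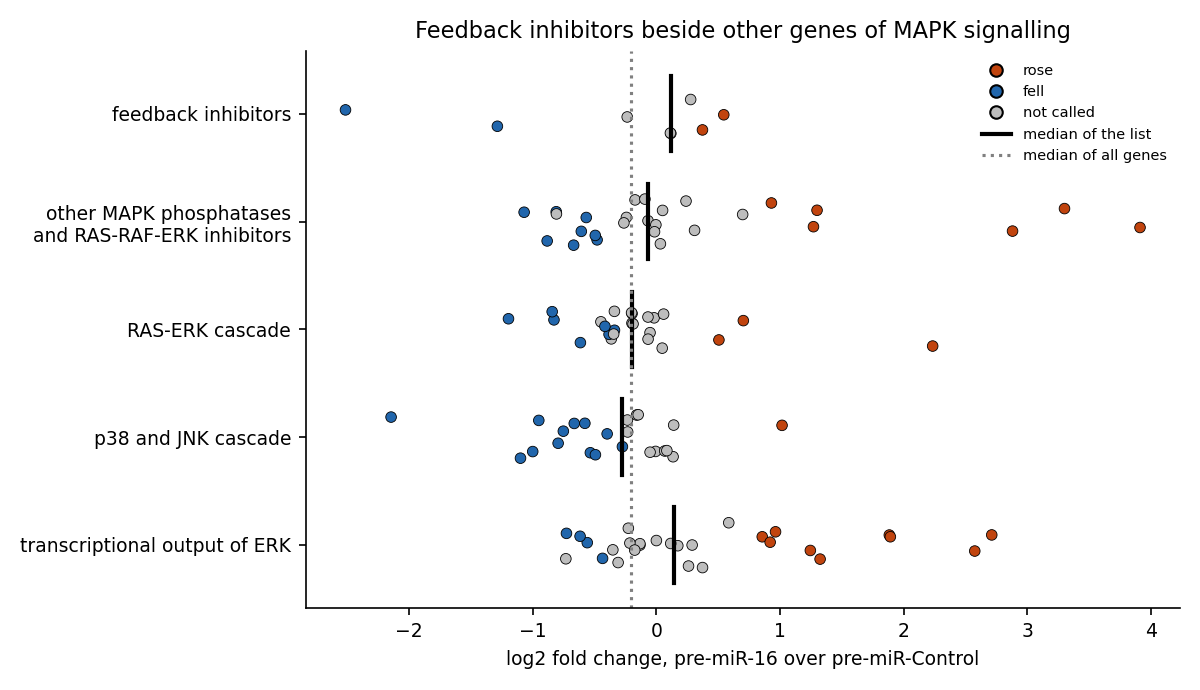
Log2 fold changes (pre-miR-16 over pre-miR-Control) of the 8 tested feedback inhibitors and of 4 other lists of MAPK signalling genes, 1 point per gene with a random vertical offset; colour gives the call, the bar the median of the list and the dotted line the median of all genes (-0.20). Dusp10 at -2.51 lies lowest of all genes drawn, and the medians lie between -0.27 and 0.15.

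Markers of other cell types moved with the groups on the same arrays. The summed signal of 14 leukocyte markers, as a multiple of the array's 75th percentile, was 16.4 to 22.2 on control arrays and 217 to 263 on pre-miR-16 arrays, and that of 12 fibroblast markers went from between 414 and 484 to between 645 and 801. On pre-miR-16 arrays most of the leukocyte sum came from Lyz2, whose mean level was 7.60 there and 2.74 on control arrays. On control arrays Cd14, which rose by 1.47 ± 0.28, gave the largest part. The median change of the 14 leukocyte markers was 3.72. Most of the fibroblast sum on the control arrays came from Dcn (decorin), which changed by -0.07 ± 0.13 and was not called. Without Dcn, a choice made after seeing the values, the sum of the other 11 went from between 37.5 and 43.6 to between 308 and 399. Of these lists 11 of 14 and 11 of 12 genes rose and 0 fell, Ptprc (CD45) was well above background on 0 of 3 control arrays, and no leukocyte or fibroblast marker was below background on all pre-miR-16 arrays. The first-listed leukocyte markers, Ptprc and the macrophage gene Adgre1, rose at least 12.1-fold and by 7.55 ± 0.35 on the log2 scale (1.81 and 5.70 under normexp), and the collagen genes Col1a1 and Col1a2 rose by 3.94 ± 0.12 and 4.16 ± 0.13. Of 14 luminal epithelial markers 12 fell, among them the keratin genes Krt8 (-1.19 ± 0.11) and Krt18 (-0.95 ± 0.11). The sum of the 14 went from between 1066 and 1208 to between 622 and 660. Of all genes 15.9% rose and 33.2% fell. Scaled on the spike-ins, the 12 luminal genes changed by -3.78 (Elf5) to 0.01 (Foxa1), with Krt8 at -0.81 and Krt18 at -0.57. Several were then near no change, such as Cldn4 (-0.08) and Cldn7 (-0.12), so the falls of those genes depend on the scaling. Elf5, Gata3 (-1.02), Krt8 and Krt18 were still lower by value.

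The sum of 8 basal and myoepithelial markers went from between 131 and 170 to between 425 and 604. Of the 7 tested genes 4 were higher and 2 lower, beside 15.9% and 33.2% of all genes. The 4 that rose encode contractile proteins shared with smooth muscle and myofibroblasts: Acta2 (3.36 ± 0.23), Cnn1 (4.03 ± 0.16), Tagln (3.31 ± 0.18) and Myh11 (2.27 ± 0.51), named after their values were seen. Of the basal keratin genes, Krt5 changed by 0.24 ± 0.27 and was not called, and Krt14 (-1.96 ± 0.36) and Krt17 (-1.83 ± 0.14) fell. Trp63 was not well above background on any array. The sum of 7 endothelial markers overlapped between the groups, but nearly all of it came from Vwf. Only Vwf of these 7 passed the filter, and it was not called (-0.05 ± 0.26). Cdh5, Kdr and Tek were not well above background on any array, nor was Emcn in the control group or Pecam1 and Cldn5 in the pre-miR-16 group. In bulk RNA fewer cells of a type and less transcript per cell cannot be told apart. The part of these markers in the changes of Dusp10, Dusp4, Spred1 and Spred2 was not tested.

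**Figure D4:**
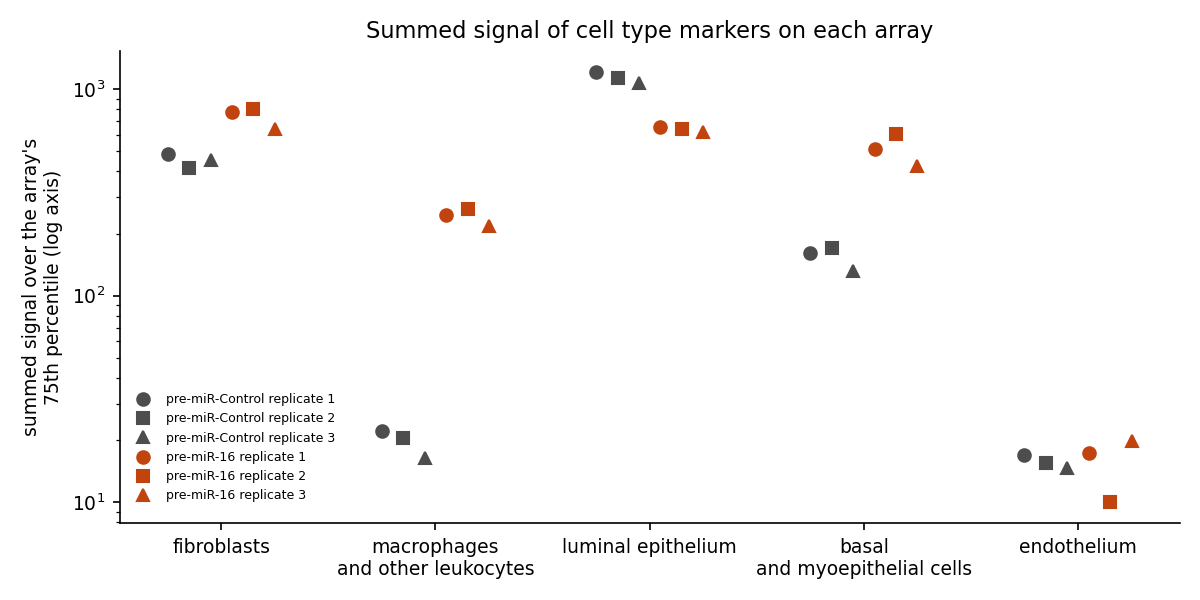
Summed signal of the markers of 5 cell types on each of the 6 arrays, as a multiple of the array's 75th percentile on a log axis; each point is 1 array. Leukocyte, fibroblast and basal sums are higher and luminal sums lower on all 3 pre-miR-16 arrays, and endothelial sums overlap at 10.1 to 19.8.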

How the data were processed

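Total RNA of 6 cultures was labelled with Cy3 and hybridised to single-colour arrays. Per the file headers, the deposited intensity values were made with Agilent Feature Extraction 9.5.3.1, with spatial and multiplicative detrending within each array; flags for spots well above background come from the same files. The deposited series matrix holds log2 values whose normalization is not stated, and the column labelled pre-miR-16 replicate 1 was closer to the scanner values of replicate 2 (Spearman 0.965, against 0.946 with its own array) and that of replicate 2 closer to replicate 1 (0.970 against 0.944). Replicate numbers here are those of the scanner files.

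With R 4.3.3 and limma 3.58.1, control and outlier spots were left out, spots of a probe averaged on the log2 scale and the 75th percentile of all spots that are not controls subtracted. A probe was kept where, in at least 1 group, a share of 0.5 or more of its spots passed the background flag on each of the 3 arrays. Genes were named by RefSeq accession, otherwise by the file's symbol, and tested at their brightest kept probe with lmFit and eBayes. Where no array of a group measured a probe above background, a fold is given as a bound, computed from the lowest signal well above background on each of that group's arrays; it holds for the processed signal only. All 10 genes of the rule are named; from each pathway list the 4 called genes without overlap and with the smallest p and the 2 uncalled genes with the smallest change; and the 2 first-listed markers of each cell type measured. The genes and lists were chosen with earlier results of these data known. An exact test of 3 against 3 arrays cannot give p under 0.1. The code was tested on simulated data. Alternatives were quantile, median and spike-in scaling, normexp with an offset of 50 before the 75th percentile or quantile normalization, the series matrix, no filter or a stricter one, keeping outlier spots, averaging the probes of a gene, trended and robust eBayes, array weights, a block for replicate or slide, leaving out single arrays and a threshold of 0.01.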

Additional observations from a re-analysis of the deposited data

How the results depend on the processing

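Dusp10 and Dusp4 were lower and called under each of the 23 alternatives with a test, at -2.78 to -2.13 and -1.46 to -0.90, so that 2 of the feedback inhibitors fell in each. Within slides, where no test was made, Dusp10 changed by -2.78 and -1.99 and Dusp4, at its brighter probe, by -1.47 and -0.93. The second Dusp4 probe, not called on its own, changed by -0.81 and 0.01 within slides 1 and 2 and by -0.25 with spike-in scaling. The count that rose, 2, was 0 with median centring (Spred1 0.51, Spred2 0.34), without the filter on dim probes (0.55, 0.37), with slide as a block (0.42, 0.29) and at a threshold of 0.01 (0.55, 0.37), and was between 0 and 2 with single arrays left out, where Spred1 changed by 0.43 to 0.67 and Spred2 by 0.30 to 0.44. With a replicate block it was 1, since Spred2 (0.37, adjusted p = 0.0696) was not called; a block in the order of the series matrix, chosen after seeing the data, also gave 1 (Spred2 0.37, adjusted p = 0.0568). The replicate block ended no other call of a feedback inhibitor; same-numbered samples did not deviate together (correlations of -0.09, -0.03 and -0.0028), so the numbers were not taken as pairs. Dusp6 was called with spike-in scaling (0.66) and with normexp and quantile normalization (0.39), and was 0.59 within slide 1 but 0.04 within slide 2. Spred1 was 0.27 within slide 2. Genes without a call changed sign: Spry2 with spike-in scaling (0.15) and within slide 1 (0.11), Spry1 with slide as a block (-0.024) and within slide 2 (-0.17), and Dusp1 within slide 2 (-0.09). So did Dusp1 (-0.030 to 0.26), Spry1 (-0.016 to 0.24) and Spry2 (-0.40 to 0.033) with single arrays left out. With single arrays left out Dusp10 and Dusp4 changed by -2.78 to -2.37 and -1.46 to -1.20, and Dusp6 by 0.19 to 0.43. The cause of these differences between settings was not tested. Of all genes, 1028 fell with spike-in scaling, 3606 without pre-miR-Control replicate 2 and 3004 at the threshold of 0.01, against 5544. With only probes well above background on all 6 arrays, 6 of 25 ERK output genes, 2 of 23 RAS-ERK genes and 5 of 26 other inhibitors rose. The main fit had 9 of 28, 3 of 24 and 6 of 27. Under that filter 2004 of all 15054 genes rose, against 2658 of 16702. In the RAS-ERK list 4 fell with the replicate block, with median centring and at 0.01, against 7; at 0.01, 6 of the p38 and JNK list (against 12) and 3 of the other inhibitors (against 8) fell; in the ERK output list 4 rose at 0.01 (against 9), and 0 fell at 0.01, 1 without the filter and 2 with quantile normalization, slide as a block or the block in matrix order (against 4). Arrays give no counts, so that their number and the signal over background limit the precision: the Spry4 probes and the dim second probes of Spred1 and Spred2 cannot show small differences.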
